A study of Mus musculus with 6 samples.

Results

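The genes described here carry out antigen presentation by the major histocompatibility complex (MHC), and were compared in dorsal skin between mice with the tight skin (TSK) mutation and wild-type (WT) mice. The members were chosen by gene name: H2-K1, H2-D1, B2m, Tap1 and Psmb8 for class I, and H2-Aa, H2-Ab1, H2-Eb1, Cd74 and Ciita for class II. These are 10 of the 55291 genes in the deposited tables, 5 in each class, and all 10 passed the filter on low counts that left 19971 genes tested. Bulk RNA libraries were made from 3 mice of each genotype, 1 library per mouse, with littermates as WT, all C57BL/6 and 6 to 8 weeks old in the labels. The TSK mutation is a duplication within Fbn1, the gene of the microfibril protein fibrillin 1, on a line kept by backcrossing to C57BL/6, and no mouse received a treatment. The sex is female in the labels but male in the study's methods, and at least 100 counts of the Y-linked gene Ddx3y were read in 6 of 6 libraries.

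Class I molecules are built from a heavy chain, such as H2-K1 or H2-D1, and the invariant light chain B2m, and they sit on nearly all nucleated cells. They show peptides that the immunoproteasome, which contains Psmb8, cuts in the cytosol and that the transporter made of Tap1 and Tap2 carries into the endoplasmic reticulum. Class II molecules pair an alpha chain (H2-Aa) with a beta chain (H2-Ab1) and are made mainly by dendritic cells, Langerhans cells, macrophages and B cells. Cd74, the invariant chain, occupies their groove until H2-DM exchanges its remnant for a peptide from an endosome. Ciita is the transactivator that class II genes depend on, and Nlrc5 is its counterpart for class I. In skin, class II is carried chiefly by Langerhans cells of the epidermis and by dendritic cells and macrophages of the dermis.

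Both classes share a promoter module of X, X2 and Y boxes, bound by the RFX complex, CREB-family factors and NF-Y, on which Ciita or Nlrc5 is assembled. The 250 bases before the transcription start of 2 class II and 2 class I members are printed to show how that module differs in its letters between the classes. The sequences are from RefSeq (GRCm38.p6, the build called mm10 in the submitters' processing notes), 5′ to 3′ on the strand of the gene. Of the 10 members, 7 had a promoter in the RefSeq table used. Capitals mark GCAAC (core of the X box), TGACG (core of the X2 box), ATTGG (core of the Y box, CCAAT on the other strand) and the interferon response letters GAANNGAAA, each searched on both strands.
H2-Aa (chr17:34287824-34288073, minus strand): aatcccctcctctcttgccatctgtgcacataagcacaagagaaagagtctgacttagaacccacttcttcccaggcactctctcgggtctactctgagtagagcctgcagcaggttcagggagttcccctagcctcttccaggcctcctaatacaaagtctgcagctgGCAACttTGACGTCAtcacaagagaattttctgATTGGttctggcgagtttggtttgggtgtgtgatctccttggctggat
H2-Eb1 (chr17:34305617-34305866, plus strand): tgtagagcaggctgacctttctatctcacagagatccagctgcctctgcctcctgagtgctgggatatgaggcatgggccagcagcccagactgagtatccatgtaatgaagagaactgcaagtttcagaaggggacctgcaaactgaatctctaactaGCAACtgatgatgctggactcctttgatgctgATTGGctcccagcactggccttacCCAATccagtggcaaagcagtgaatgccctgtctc
H2-K1 (chr17:34000348-34000597, minus strand): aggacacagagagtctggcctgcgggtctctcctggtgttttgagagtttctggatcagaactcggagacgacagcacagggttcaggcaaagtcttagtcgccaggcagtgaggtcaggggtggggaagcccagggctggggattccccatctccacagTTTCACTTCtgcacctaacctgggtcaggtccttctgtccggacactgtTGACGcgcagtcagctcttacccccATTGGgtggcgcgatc
B2m (chr2:122147437-122147686, plus strand): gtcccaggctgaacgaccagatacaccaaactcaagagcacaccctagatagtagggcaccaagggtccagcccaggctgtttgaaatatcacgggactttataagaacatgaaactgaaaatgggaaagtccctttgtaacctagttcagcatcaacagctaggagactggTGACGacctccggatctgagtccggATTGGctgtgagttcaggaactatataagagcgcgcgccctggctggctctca

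In H2-Aa the X core began 81 bases before the start (-81) and was followed by TGACG at -74, which overlaps a second match on the other strand, and by ATTGG at -48. In H2-Eb1 the X core began at -91 and ATTGG at -59, with a further match to the Y core on the other strand at -35. The distance from GCAAC to ATTGG on the strand of the gene was thus 33 bases in H2-Aa and 32 bases in H2-Eb1. Of all 32851 RefSeq promoters searched in the same 250-base window, 0.633% held GCAAC followed by ATTGG on the strand of the gene at a distance of 15 to 45 bases. In the class I members H2-K1, H2-D1 and B2m, GCAAC did not precede ATTGG at such a distance, whereas TGACG preceded ATTGG by 25 bases in each. A pair of this kind, at 15 to 45 bases, was in 0.408% of the promoters, H2-Aa among them with a distance of 26 bases.

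The single letters were common: GCAAC was found in 29.9% of the promoters, TGACG in 17.8% and ATTGG in 33.8%. GAANNGAAA, in 6.31% of the promoters, was found on the other strand of H2-K1 and H2-D1 and in no other member searched. Tap1 held all 3 box cores, with TGACG at -86, but no pair at the distances given, and Psmb8 held none of these letters in its window. H2-K1 has a second listed start with the same distance of 25 bases. These are matches of letters and not measured binding.

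**Figure D1:**
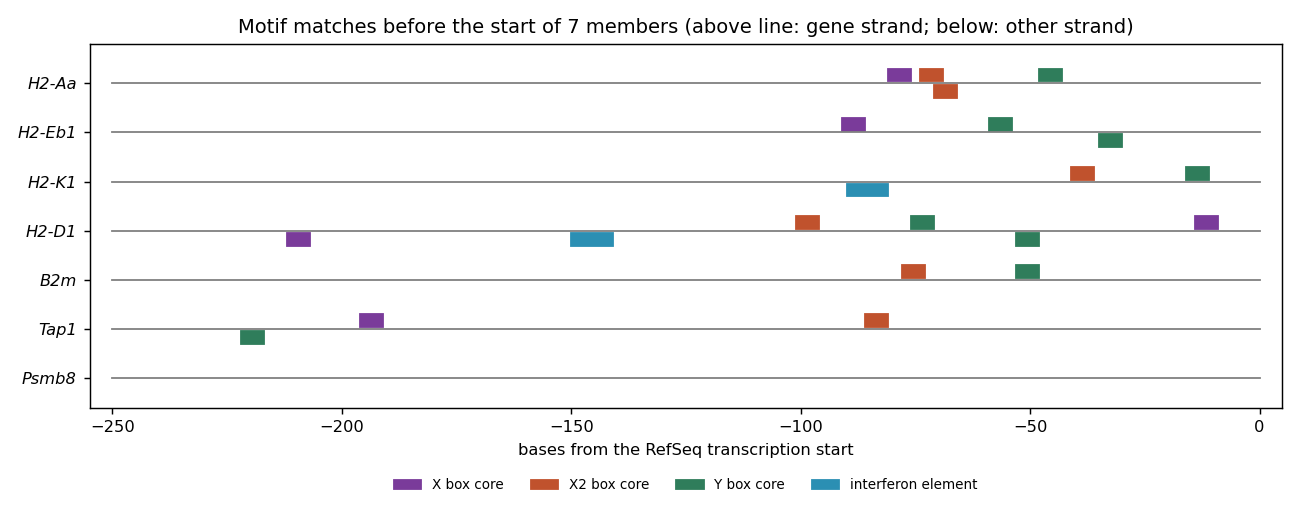
Positions of motif matches in the 250 bases before the RefSeq start of 7 members, in bases from the start. Boxes above a line are matches on the strand of the gene and boxes below it are matches on the other strand; the X core stands 33 and 32 bases before the Y core in H2-Aa and H2-Eb1, and the X2 core 25 bases before it in H2-K1, H2-D1 and B2m.

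Values below are TMM-scaled CPM, which are counts per 1000000 after a correction for the makeup of each library, and fold changes are log2, TSK minus WT, with 95% intervals. A gene was called when edgeR's quasi-likelihood test gave a Benjamini-Hochberg adjusted p below 0.05 over all 19971 genes. By that rule 3.39% of all genes tested were called, 2.71% higher and 0.681% lower in TSK, and the median log2 fold change of all genes tested was -0.026. Of the calls 79.9% were higher, against 94.8% with library size as the only scaling, which moved that median by more than 0.1, to 0.25. Library totals ran from 17561453 to 19219814 counts and overlapped between the groups. Genes of skeletal muscle took 15.97% to 23.2% of the counts in WT and 13.7% to 15.7% in TSK. Ribosomal RNA took 6.11% to 7.81% in WT and 2.68% to 5.46% in TSK, so neither share overlapped between the groups. With the genes of both removed before scaling, the median log2 fold change was 0.75 over the 5 class II members and -0.012 over the 5 class I members, and the part of RNA quality in the class II values was not tested. Keratinocyte genes (3633 to 7047 CPM in sum) and fibroblast genes (6179 to 41972 CPM in sum) were abundant in the 6 libraries. Fbn1 was at 261, 351 and 296 CPM in WT 1 to 3 and at 1450, 2053 and 1781 CPM in TSK 1 to 3, a log2 fold change of 2.54 (edgeR adjusted p = 0.00327).

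Class II and class I genes differed in where their TSK libraries stood. For H2-Aa, H2-Ab1, H2-Eb1 and Cd74, each of the 3 TSK libraries exceeded every WT library, with fitted folds of 1.66 to 1.90. In contrast, the TSK and WT libraries overlapped for all 5 class I members, whose fold changes lay on both sides of 0. The median log2 fold change was 0.75 over the 5 class II members and -0.013 over the 5 class I members. However, no member was called: with edgeR the class II members had adjusted p of 0.0842 to 0.295 and the class I members of 0.544 to 0.98, where 3.39% of all genes were called. At an unadjusted p below 0.05, 4 of 5 class II members and 0 of 5 class I members were higher, against 12.1% of all genes tested, and 0 members of either class were lower, against 7.9%. DESeq2 called 4 of 5 class II members higher (H2-Aa, H2-Ab1, H2-Eb1 and Cd74), limma-voom called 0, and both called 0 of 5 class I members. Over all genes DESeq2 called 7.58% of 20414 and limma-voom 2.73% of 19971, in either direction. Libraries that did not overlap, with TSK higher, were found in 14.1% of all genes tested. In bulk tissue more cells that carry class II and more class II RNA per cell cannot be told apart.

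**Figure D2:**
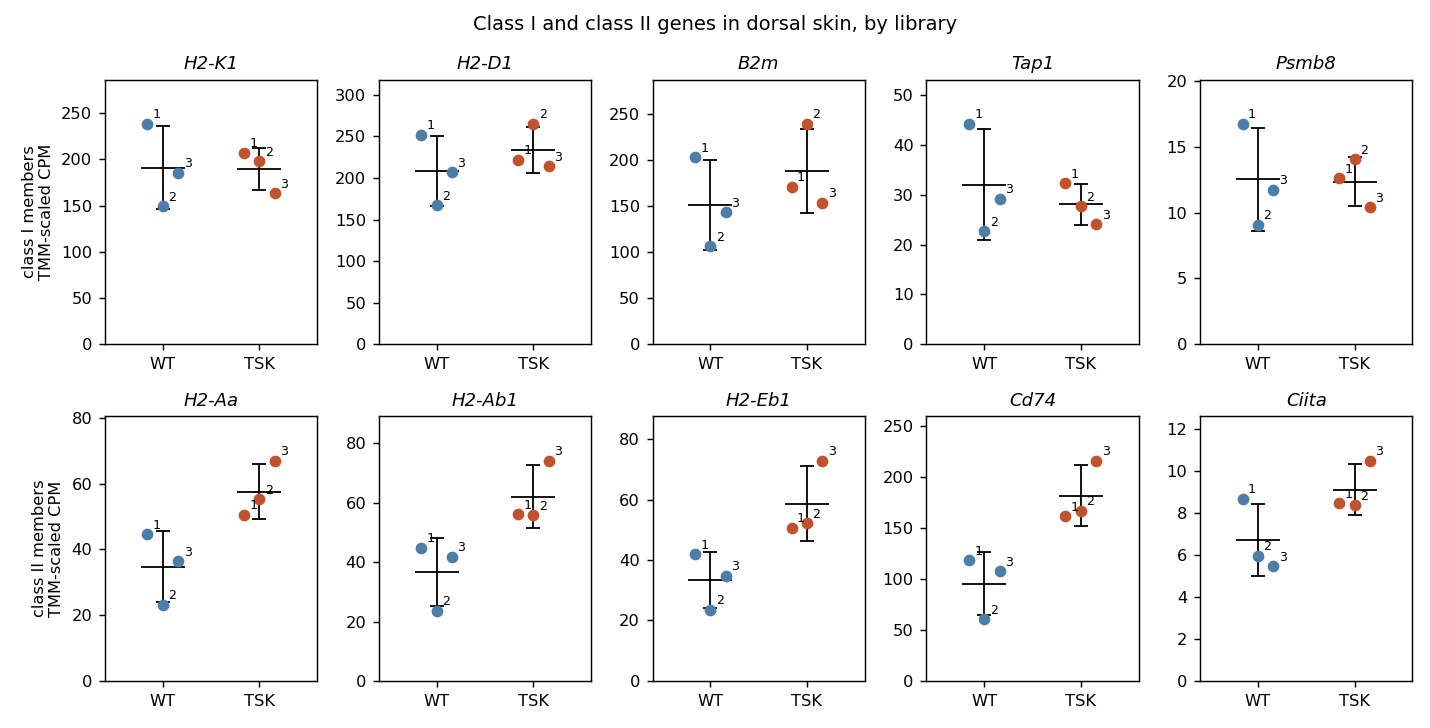
TMM-scaled CPM of the 5 class I members (upper row) and the 5 class II members (lower row) in each of the 3 WT and 3 TSK libraries; points are libraries numbered by replicate, the wide dash is the mean and the bar the SD. TSK points lie above all WT points in H2-Aa, H2-Ab1, H2-Eb1 and Cd74 and overlap with them in the other 6 genes.

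The classical heavy chains bind the peptide and are read by cytotoxic T cells. H2-K1 (chromosome 17, 33996017 to 34000347) was at 239, 149.6 and 186 CPM in WT 1 to 3 and at 207, 198 and 164 CPM in TSK 1 to 3. The WT libraries thus enclosed the TSK libraries, and the log2 fold change was -0.013 (95% interval -0.46 to 0.43, edgeR adjusted p = 0.98). H2-D1 (chromosome 17, 35262730 to 35267499) was at 252, 167 and 207 CPM in WT and at 222, 265 and 214 CPM in TSK. Its lowest value was in WT 2 and its highest in TSK 2, and the log2 fold change was 0.16 (-0.25 to 0.58, edgeR adjusted p = 0.674). Leaving out WT 1 gave 0.35, WT 2 0.033 and TSK 2 0.062. The intervals of both heavy chains leave out a doubling or a halving, which stand at 1 and -1 on this scale. Of the 50-base stretches of H2-K1 and H2-D1 transcripts, 9.63% and 12.8% occur also in other transcripts, mainly of H2-Q genes and of each other, so part of their reads could be divided among these genes.

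B2m, the light chain that pairs with the class I heavy chains, lies on chromosome 2 (122147686 to 122153083), 3.15 Mb from Fbn1. It was at 203, 106 and 143 CPM in WT 1 to 3 and at 171, 239.7 and 154 CPM in TSK 1 to 3. WT 2 and WT 3 lay below all TSK libraries, WT 1 lay above TSK 1 and TSK 3, and the log2 fold change was 0.32 (-0.27 to 0.91, edgeR adjusted p = 0.544). It was 0.62 without WT 1, 0.12 without WT 2 and 0.10 without TSK 2. Tap1 (chromosome 17, 34187553 to 34197225), a chain of the peptide transporter, was at 44.3, 22.7 and 29.3 CPM in WT and at 32.3, 27.8 and 24.1 CPM in TSK. Psmb8 (chromosome 17, 34197721 to 34201454), a catalytic subunit of the immunoproteasome, was at 16.7, 9.07 and 11.7 CPM in WT and at 12.6, 14.1 and 10.4 CPM in TSK. For both genes the WT libraries enclosed the TSK libraries, with log2 fold changes of -0.19 (-0.73 to 0.34) for Tap1 and -0.022 (-0.55 to 0.50) for Psmb8. The signs of H2-K1, Tap1 and Psmb8 turned positive under library size scaling, and no setting called them. Tap1 overlaps Psmb9 and Psmb8 overlaps the antisense gene Gm20496 on the other strand, and it is not given in the sources used here whether strand was used in counting.

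The alpha and beta chains of the A molecule form the class II dimer of C57BL/6 mice. H2-Aa (chromosome 17, 34282744 to 34287823) was at 44.5, 23.2 and 36.4 CPM in WT 1 to 3 and at 50.5, 55.2 and 67.0 CPM in TSK 1 to 3. Its partner H2-Ab1 (chromosome 17, 34257689 to 34269419) was at 44.9, 23.7 and 41.8 CPM in WT and at 56.1, 55.8 and 74.2 CPM in TSK. In both genes WT 2 was lowest, TSK 3 highest, and the groups did not overlap, although WT 1 came close: the lowest TSK library exceeded the highest WT library by 1.14-fold for H2-Aa and 1.24-fold for H2-Ab1. The log2 fold changes were 0.73 (SE 0.23, 95% interval 0.21 to 1.25, edgeR adjusted p = 0.122) and 0.75 (SE 0.24, 0.21 to 1.30, adjusted p = 0.126). The log2 ratio of H2-Aa to H2-Ab1 was -0.080 ± 0.104 in WT and -0.104 ± 0.077 in TSK (SD, n = 3), so the balance of the 2 chains differed by less than its spread between mice.

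H2-Eb1 (chromosome 17, 34305867 to 34316674), the beta chain of the E molecule, was at 42.0, 23.6 and 34.8 CPM in WT 1 to 3 and at 50.8, 52.3 and 72.9 CPM in TSK 1 to 3. The groups did not overlap and the log2 fold change was 0.81 (SE 0.23, 95% interval 0.29 to 1.33, edgeR adjusted p = 0.0937). Its alpha partner H2-Ea, which mice of the b haplotype such as C57BL/6 do not express, had 0 counts in all 6 libraries, which allows at most 3 counts, or 0.140 to 0.194 CPM, in a library (counting error only). No library of either group thus held detectable E alpha RNA. Cd74, on chromosome 18, had the highest class II level per kb of exon (given below), and its TMM-scaled values were 118, 60.3 and 108 CPM in WT against 161, 166 and 216 CPM in TSK. It had the greatest fold change of the 10 members, 0.93 (SE 0.25, 95% interval 0.35 to 1.498, edgeR adjusted p = 0.0842), and its lowest TSK library stood 1.37-fold above its highest WT library.

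The ratio of Cd74 to H2-Ab1, chosen after the values had been seen, varied little within groups. The log2 ratio was 1.39, 1.35 and 1.36 in the WT libraries and 1.52, 1.58 and 1.54 in the TSK libraries, so the groups did not overlap, although the class II levels of the WT libraries spanned 1.90-fold for H2-Ab1. The mean was 1.37 ± 0.024 in WT and 1.55 ± 0.027 in TSK (SD, n = 3), a difference of 0.18 that was not tested.

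Ciita (chromosome 16, 10480059 to 10528418), the regulator, was the class II member with the smallest fold change. It was at 8.68, 5.96 and 5.47 CPM in WT 1 to 3 and at 8.45, 8.37 and 10.5 CPM in TSK 1 to 3. WT 1 stood above TSK 1 and TSK 2, so the groups overlapped, and the log2 fold change was 0.44 (SE 0.21, 95% interval -0.045 to 0.92, edgeR adjusted p = 0.295). On the deposited CPM, before TMM scaling, the groups did not overlap, with 8.86 CPM in WT 1 and 8.95 CPM in TSK 1, and without WT 1 the log2 fold change was 0.70 (edgeR adjusted p = 0.0721). Its transcripts share 1.46% of their 50-base stretches with the overlapping gene Dexi on the other strand.

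To compare the classes within a library, the mean log2 CPM of the 5 class I members was subtracted from that of the 5 class II members. The difference was -1.34, -1.37 and -1.18 in the WT libraries and -0.80, -0.89 and -0.14 in the TSK libraries. The groups did not overlap, and TSK 3 stood apart from TSK 1 and TSK 2, with class II nearly as high as class I. Ratios of single genes did overlap: log2 H2-Ab1 over B2m was -2.18, -2.16 and -1.77 in the WT libraries against -1.61, -2.10 and -1.05 in the TSK libraries, and log2 Cd74 over B2m was lower in TSK 2 (-0.53) than in WT 3 (-0.41). The group means were -1.30 ± 0.10 in WT and -0.61 ± 0.41 in TSK (SD, n = 3), a shift of 0.68 toward class II that does not depend on the scaling of the libraries. The difference between the medians of the classes was 0.77 in edgeR, 0.77 with library size scaling and 0.52 without TSK 3. The shift was not tested, because the genes were chosen with earlier results known. WT 2 had the lowest and WT 1 the highest WT mean in both classes.

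**Figure D3:**
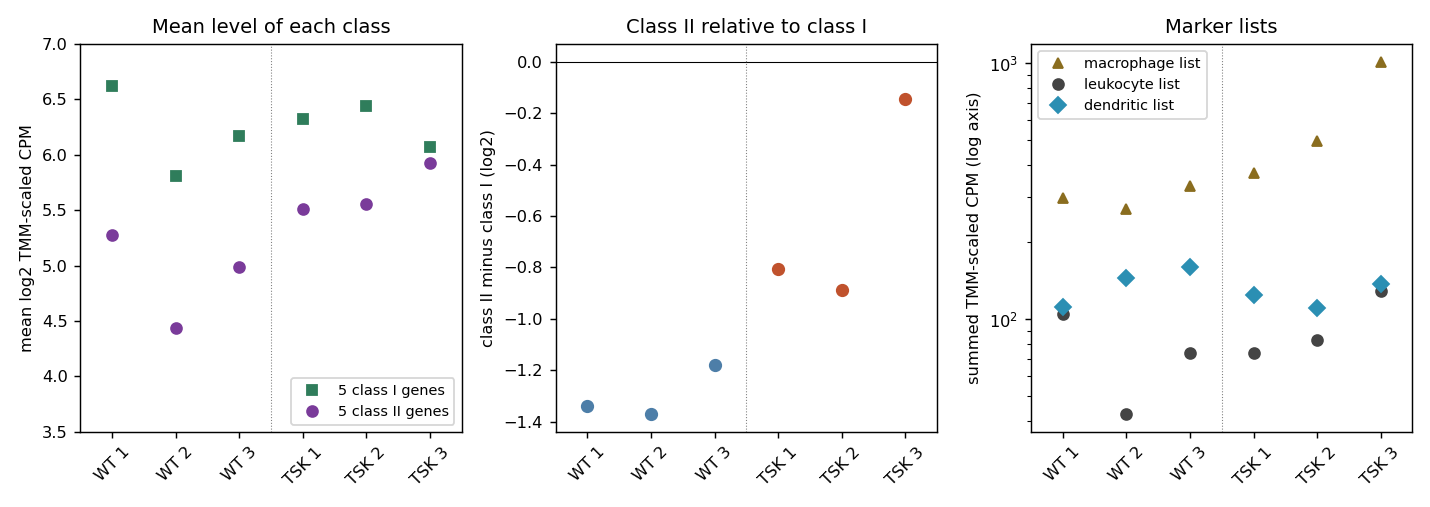
Left, the mean log2 TMM-scaled CPM of the 5 class I and 5 class II members in each library; middle, class II minus class I by library, -1.37 to -1.18 in WT and -0.89 to -0.14 in TSK; right, the summed TMM-scaled CPM of the macrophage, leukocyte and dendritic marker lists on a log axis. The dotted line parts WT from TSK, and each point is 1 library.

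Profiles over the 6 libraries were compared between pairs of members by the root mean square difference between gene-centred log2 CPM. The median difference between a pair was 0.151 within class I (10 pairs), 0.116 within class II (10 pairs) and 0.451 between the classes (25 pairs). H2-Aa and H2-Eb1 were the closest pair, at 0.0725. Ciita stood apart from the other class II members, at 0.275 to 0.379, and was nearer to H2-D1 (0.267) than to any of them. Among 11968 other genes with at least 5 CPM, those nearest to H2-Ab1 were Prkcb (0.0655), Arhgap9 (0.0807), Gm20186 (0.114), H2-DMb1 (0.126) and Cd276 (0.126). Those nearest to Cd74 were H2-DMb1 (0.0864), Prkcb (0.0873), Basp1 (0.136), Arhgap9 (0.139) and Gm12840 (0.142). The list for B2m held Ggh (0.0623), Gbp2 (0.0913), Adtrp (0.11), Sh3bgrl (0.111) and the class Ib gene H2-T22 (0.118). For H2-K1 the nearest were Pgap1 (0.0390), Fam76b (0.0462), Anxa2 (0.0536), Actr3 (0.0607) and Atox1 (0.0627). These distances over 6 libraries are a description and were not tested.

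Per kilobase of exon, the levels of the members followed the same order in both groups except for Cd74. In WT the order was B2m (175.5 ± 56.9 CPM per kb), H2-D1 (80.9 ± 16.5), H2-K1 (65.1 ± 15.2), Cd74 (56.8 ± 18.3), H2-Eb1 (17.2 ± 4.78), H2-Ab1 (14.3 ± 4.47), H2-Aa (9.14 ± 2.83), Tap1 (5.86 ± 2.02), Psmb8 (3.70 ± 1.15) and Ciita (0.703 ± 0.182; SD, n = 3). Libraries of neighbours in this order overlapped except between B2m and H2-D1, Cd74 and H2-Eb1, and Psmb8 and Ciita. In TSK, Cd74 (107.9 ± 17.9 CPM per kb) stood second, behind B2m (219 ± 52.8) and level with H2-D1 (90.6 ± 10.7), with which its libraries overlapped. H2-K1 (64.6 ± 7.86) stood below both without overlap. Exon lengths were the union over all annotated transcripts, which lowers the level of genes with rare long exons.

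The class II pathway list, which includes the 5 class II members, had 24 genes in the table, of which 21 were tested. H2-DMa, the alpha chain of the peptide exchanger H2-DM, was the only gene of the list that was called, with 1 call in 21 against 2.71% of all genes. It was at 6.29, 4.34 and 5.90 CPM in WT 1 to 3 and at 11.5, 10.4 and 12.9 CPM in TSK 1 to 3. The groups did not overlap, and it rose by 1.07 on the log2 scale (SE 0.19, 95% interval 0.65 to 1.497, edgeR adjusted p = 0.0233). The call was lost without WT 2 (adjusted p = 0.0612), WT 3 (0.0954), TSK 1 (0.0528) or TSK 3 (0.0601), with log2 fold changes of 0.94 to 1.13. DESeq2, with 7.58% of all genes called, called 5 genes of the list, H2-DMa and 4 members. H2-DMa overlaps Brd2, with which it shares 8.43% of its 50-base stretches. Its partner H2-DMb1 was at 6.01, 2.66 and 4.53 CPM in WT and at 7.41, 7.81 and 9.32 CPM in TSK, again without overlap (log2 fold change 0.89, edgeR adjusted p = 0.121), although 22.7% of its 50-base stretches occur in the near copy H2-DMb2.

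Of the 21 genes, 15 had a positive and 6 a negative fold change, with a median of 0.38. The genes of the pathway lists named from here on that are neither members, nor called, nor nearest to a member, nor among the first 4 of their list were chosen after their values had been seen. For the general promoter factors, log2 fold changes were -0.14 for Rfx5, -0.20 for Rfxap and 0.018 for Rfxank, the 3 chains of the RFX complex, and 0.023 for Creb1. Of the NF-Y chains, Nfya had 0.27, Nfyb -0.40 and Nfyc -0.077, with edgeR adjusted p of 0.232 or more. Of the 3 lysosomal proteases of the list, which act on Cd74 or on antigen, Ctss had -0.49 (adjusted p = 0.534), Lgmn -0.47 (0.272) and Ctsl 0.11 (0.683). Ctss spread from 19.7 to 59.8 CPM within WT. Ifi30, the thiol reductase of the endosome, had a log2 fold change of 0.38 (adjusted p = 0.228).

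For class I, 17 genes of the pathway list were tested, the 5 members included, with a median log2 fold change of 0.15, 13 positive and 4 negative. None was called by edgeR, while the unadjusted p was below 0.05 for 2 higher genes and 1 lower gene, where 12.1% of all genes were higher and 7.9% lower. DESeq2 called 1 higher and 1 lower, where it called 7.58% of all genes. The lower gene was Nlrc5, the class I transactivator (chromosome 8, 94434356 to 94527272), at 87.7, 75.6 and 78.0 CPM in WT 1 to 3 and at 61.8, 47.4 and 51.3 CPM in TSK 1 to 3. The groups did not overlap, with a log2 fold change of -0.59 (SE 0.14, 95% interval -0.91 to -0.27, edgeR adjusted p = 0.0602, DESeq2 adjusted p = 0.013). With library size scaling its log2 fold change was -0.33 (adjusted p = 0.266), and on the deposited CPM the groups overlapped. The higher gene was Tapbp, tapasin, which holds empty class I molecules to the transporter, at 70.8, 62.7 and 76.5 CPM in WT and at 90.0, 119.7 and 104 CPM in TSK (log2 fold change 0.58, SE 0.15, edgeR adjusted p = 0.0723, DESeq2 adjusted p = 0.0139). Of Tapbp's 50-base stretches, 23.2% occur in other transcripts, chiefly those of the antisense gene Gm19412. The other gene of this kind was Pdia3, a folding enzyme of the class I loading complex (log2 fold change 0.37, edgeR adjusted p = 0.143). Tap2, Psmb9 and Psmb10, partners of Tap1 and Psmb8, had log2 fold changes of 0.26, 0.20 and 0.28 with overlapping libraries.

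Of the 17 genes of the class Ib list, mostly less variable relatives of H2-K1 and H2-D1, 14 were tested and 0 were called by edgeR. The list also holds Cd1d1 and Mr1, which lie outside the MHC on chromosomes 3 and 1, and H2-K2, H2-T10 and H2-Bl, which are annotated as pseudogenes. The median log2 fold change of the 14 tested genes was 0.094, with 8 positive and 6 negative. The unadjusted p was below 0.05 for 1 higher gene (12.1% of all genes) and 2 lower genes (7.9% of all genes), and DESeq2 called 1 higher (7.58% of all genes called). H2-Q4 was at 34.9 to 45.7 CPM in WT and 28.6 to 32.3 CPM in TSK (log2 fold change -0.37, edgeR adjusted p = 0.196), H2-Q6 had -0.085, and H2-Q1 and H2-Q2 did not pass the filter. Cd1d1, which presents lipids, was at 2.62, 1.17 and 1.30 CPM in WT 1 to 3 and at 5.24, 30.8 and 3.91 CPM in TSK 1 to 3. Its log2 fold change of 2.95 (edgeR adjusted p = 0.0877) came with its highest value in TSK 2, the library in which adipocyte genes summed to 1658 CPM, against 104 to 375 CPM in the other 5 libraries. The part of the adipocyte genes in this value was not tested.

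**Figure D4:**
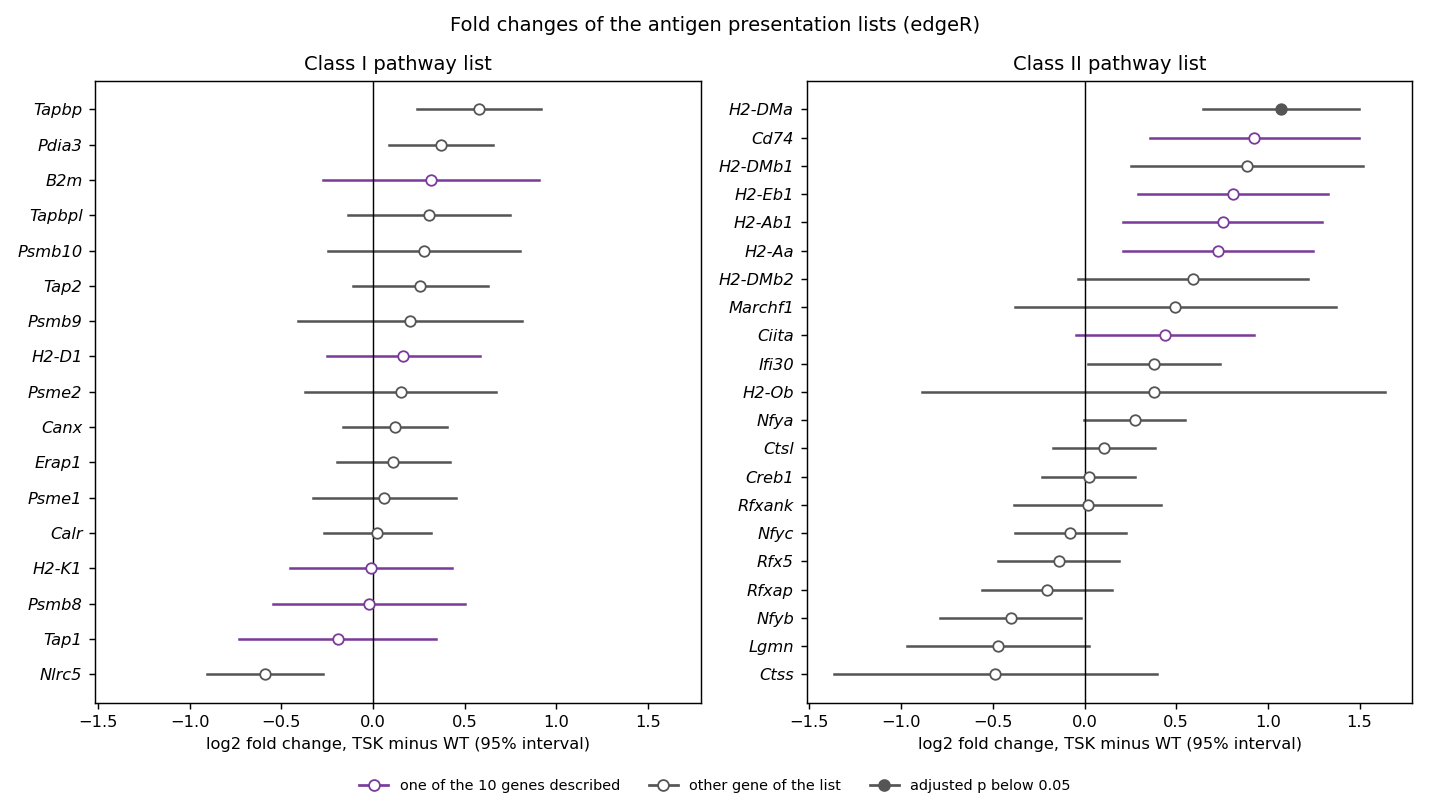
Log2 fold changes, TSK minus WT, with 95% intervals from edgeR for 17 tested genes of the class I list (left) and 21 of the class II list (right), ordered by value. Purple marks the 10 members and a filled point an adjusted p below 0.05, which H2-DMa reached alone; Cd74, H2-DMb1, H2-Eb1, H2-Ab1 and H2-Aa follow it on the right, and Nlrc5 stands lowest on the left.

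Interferon gamma is the main inducer of Ciita outside professional antigen-presenting cells, and its pathway was read from 16 genes. Ifng itself had 0 counts in all 6 libraries, which allows up to 3 counts in each. Of 15 tested genes edgeR, DESeq2 and limma-voom called 0 and limma-trend on the deposited CPM called 1 higher, where it called 9.37% of all genes, and the median log2 fold change was 0.017, with 8 positive and 7 negative. At an unadjusted p below 0.05, 1 gene was higher, where 12.1% of all genes were, and 1 was lower, where 7.9% were. Ifngr1, the ligand-binding receptor chain, was at 50.5 to 53.9 CPM in WT and at 62.9 to 70.9 CPM in TSK (log2 fold change 0.35, edgeR adjusted p = 0.131), whereas Cxcl10, a chemokine induced by interferon, was at 1.30 to 4.79 CPM in WT and 0.753 to 1.04 CPM in TSK (-1.60, adjusted p = 0.126), with overlap on the deposited CPM. Other targets of interferon in the list had positive fold changes, 0.52 for Cxcl9, 0.33 for Gbp2 and 0.29 for Irf1, with adjusted p of 0.523 to 0.564 and overlapping libraries. Ifngr2 had -0.27 and Jak1 -0.22. A list of costimulatory and inhibitory molecules had 5 tested genes. Of these, 0 were called by edgeR, by DESeq2 or by limma-voom, where 3.39%, 7.58% and 2.73% of all genes were. The unadjusted edgeR p was below 0.05 for 0 of the 5, where 12.1% of all genes were higher and 7.9% lower. The log2 fold changes were -0.028 for Cd40, 0.25 for Cd80, 0.63 for Cd86 and 0.25 for Cd274.

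Markers of the cells that carry class II were read beside these values. The 11 macrophage genes summed to 297, 269 and 332 CPM in WT 1 to 3 and to 372, 499 and 1016 CPM in TSK 1 to 3, so the groups did not overlap and TSK 3 stood highest, as it did for class II. Their median log2 fold change was 0.98, with 10 of 11 positive, and edgeR called 1, Lyve1 (2.22, adjusted p = 0.0352), a gene of perivascular macrophages and lymphatic vessels, where DESeq2 called 6 (against 7.58% of all genes) and limma-voom 0 (2.73%). Mertk (0.80) and Csf1r (1.06) did not overlap between the groups, whereas Cd68 (0.043) and Adgre1 (0.23) did, and Fcgr1 had -1.05. The 8 tested dendritic cell genes had a median of 0.20 with 0 called, and their sum overlapped, at 112 to 160.5 CPM in WT and 110.4 to 137 CPM in TSK, much of it from Cd24a, which other cells also express. Itgax, Flt3, Xcr1 and Zbtb46 overlapped between the groups, with log2 fold changes of -0.008 to 0.43. Batf3 (1.13, edgeR adjusted p = 0.282) and Clec10a (0.99, 0.286) had the greatest fold changes of the list and also overlapped. Clec10a, a lectin of dendritic cells and macrophages, was at 13.2 to 15.3 CPM in WT and at 12.1, 18.3 and 52.8 CPM in TSK 1 to 3, so TSK 3 stood highest, as it did for class II. For Langerhans cells, Cd207 was at 3.06, 2.53 and 3.91 CPM in WT 1 to 3 and at 5.55, 3.32 and 2.96 CPM in TSK 1 to 3. The groups thus overlapped (log2 fold change 0.31, edgeR adjusted p = 0.609), and Epcam had a log2 fold change of 0.28.

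The 4 genes of leukocytes in general summed to 104, 42.4 and 73.7 CPM in WT 1 to 3 and to 73.6, 83.1 and 128 CPM in TSK 1 to 3. WT 2 was lowest in this list as it was in both MHC classes, and the groups overlapped. The median log2 fold change was 0.27, with 0 called by edgeR and 4 of 4 positive, from 0.070 for Ptprc, the pan-leukocyte antigen CD45, and 0.12 for Cd53 to 0.42 for Coro1a and 0.58 for Laptm5. The B cell markers Cd79a, Cd79b and Pax5 had at most 8 counts in any library and were not tested, while Ms4a1 (-0.34) and Blnk (0.56) were not called by edgeR. On the deposited CPM limma-trend called 1 of these 2 genes higher (9.37% of all genes called), and the groups did not overlap for Blnk, as for 14.1% of all genes with TSK higher. The median log2 fold changes of the other lists were 0.40 for T and NK cells, -0.69 for monocytes and neutrophils, -0.35 for lymph node, -0.26 for keratinocytes, 1.04 for fibroblasts, 0.99 for endothelium, 3.13 for adipocytes and -0.77 for skeletal muscle. The fibroblast genes summed to 6179, 10341 and 10874 CPM in WT 1 to 3 and to 19608, 18265 and 41972 CPM in TSK 1 to 3. For them too the groups did not overlap and TSK 3 stood highest, as for the macrophage genes and class II. The sums of the endothelial and adipocyte genes did not overlap either, with TSK 2 highest. The part of the shifts of any of these lists in the class II values was not tested.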

How the data were processed

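Dorsal skin RNA of 3 WT and 3 TSK mice was depleted of ribosomal RNA and sequenced by the authors from one end (50 bases, strand-marked kit). Alignment was by STAR against mm10, with gene quantification by Partek Flow 11.0 on the Ensembl gene models. The deposited table named as raw holds estimated counts, which were rounded; 43.3% to 45.4% of the values above 0 were whole numbers to within 0.001. The authors also deposited CPM, each count scaled to 1000000 per library. Nothing says how reads that fit several genes were shared. Totals of 17561453 to 19219814 counts set the counting precision, and the number of mice limits it further.

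Groups came from the sample labels. The comparison was TSK against WT with edgeR 4.0.16 (R 4.3.3): filterByExpr, TMM, quasi-likelihood test, two-sided, adjusted over all 19971 genes kept. limma 3.58.1 and DESeq2 1.42.0 were alternatives, as were other scalings, filters and thresholds, a replicate block, removal of muscle and ribosomal RNA genes, and leaving out each library. Log2 CPM used a prior count of 2, and limma-trend a pseudocount of 1 or 0.1. Each SE was the log2 fold change divided by the root of F. The fit was tested on simulated data. Named genes were the members, genes of the fixed lists that were called or stood among the first 4 listed, the 5 nearest profiles to H2-K1, B2m, H2-Ab1 and Cd74, H2-Ea, Fbn1 and the cell markers; further genes of the lists were chosen after their values had been seen, as the text says where they begin. The members and lists were chosen with earlier results of these data known. Shared 50-base stretches, exon lengths and overlaps were taken from GENCODE M21, whose gene starts and ends matched the deposited ones for the genes checked.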

Additional observations from a re-analysis of the deposited data

How the results depend on the processing

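With edgeR and TMM, 0 class I members, 0 class II members, 0 genes of the wider class I lists and 1 gene of the wider class II list were called, where 3.39% of all genes were. No alternative run called a class I member. Library size scaling called 2 class II members, 3 wider class I and 3 wider class II genes, with 8.9% of all genes called. DESeq2 called 4, 3 and 5 (7.58% of all genes), limma-trend on deposited CPM 4, 2 and 6 (pseudocount 1, 9.37% of all genes) or 4, 3 and 6 (pseudocount 0.1, 9.31%), and edgeR without a low-count filter 2, 2 and 3 (3.98%). Under the stricter rule (adjusted p under 0.01, fold over 2.5) the wider class II list had 0, with 0.29% of all genes called. Leaving out 1 library gave 0 to 3 class II members, 0 wider class I and 0 to 5 wider class II genes, with 0.29% (without WT 3) to 6.13% (without WT 1) of all genes called, the highest counts being without WT 1, which left Cd74, H2-Aa and H2-Eb1 among the calls. In each case the cause was not tested. The median of class II members ran from 0.52 (without WT 2) to 1.07, that of class I members from -0.16 (without WT 2) to 0.29, and the difference between the classes from 0.52 (without TSK 3) to 0.87, all positive. The signs of 3 class I members, none of them called, turned. H2-K1 was at 0.23 with library size, 0.013 with limma-voom, 0.28 and 0.29 with limma-trend (pseudocounts 1 and 0.1) and 0.0054 with the replicate block. Psmb8 was at 0.22, 0.0023, 0.27, 0.29 and 0.0079 in the same order, and Tap1 at 0.042, 0.13 and 0.13 with library size and limma-trend. Without 1 library H2-K1 ran from -0.16 to 0.20, Psmb8 from -0.20 to 0.27 and Tap1 from -0.39 to 0.14. Whether same-numbered mice were paired is not given in the labels. After removal of the group means, same-numbered libraries had correlations of 0.011, 0.17 and -0.094, which cannot show whether such mice were littermates. With the replicate block 0 class I members, 0 class II members and 1 wider class II gene were called (3.98% of all genes), with class medians of 0.0079 and 0.79. Depth limits the low genes, such as H2-Ob and H2-Oa, which had at most 15 counts in a library.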
